A study of Mus musculus with 2 samples.

Results

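The genes described are 10 immediate early genes, Fos, Fosb, Jun, Junb, Jund, Egr1, Atf3, Ier2, Nr4a1 and Dusp1. They were found by symbol among the 27998 gene rows of the count tables, and each symbol matched 1 row. They were measured in dissociated cells of the pancreas of 2 C57BL/6 mouse embryos of embryonic day 13.5, 1 titled control and 1 titled knockout. The series concerns Dpy30, which Trithorax group complexes need for full methylation of histone H3. Its title writes the deletion as Dpy30∆P. The sources used here do not state which stretch is deleted, by which Cre driver, or which alleles the control embryo carried. Both pancreata were digested with trypsin for 8 minutes at 37 °C, and live cells were sorted and taken through 10x Chromium 3′ version 2 chemistry, which counts each captured transcript once by a unique molecular identifier (UMI).

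Immediate early genes are transcribed within minutes of a stimulus by factors already present in the cell, with no need for new protein. Growth factors, stretch, heat and the handling of a tissue all act as such stimuli, and warm enzymatic dissociation is a known one, so the level in isolated cells need not be the level in the organ. Most of the proteins are transcription factors: Fos and Jun family members pair to form AP-1, Egr1 is a zinc finger activator, Atf3 is a stress-responsive member of the ATF/CREB family, and Nr4a1 is an orphan nuclear receptor. Dusp1 is a phosphatase that switches off the MAP kinases that induce the others, and Ier2 is a short nuclear protein. Undissociated tissue was not analysed here, so transcripts present in the embryo and transcripts made during digestion and sorting cannot be told apart.

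Cyclic AMP and calcium signals reach many immediate early genes through CREB, which binds the sequence TGACGTCA and, less tightly, the shorter TGACG. The RefSeq promoter table of GRCm38.p6 held 8 of the 10 genes, and the 250 bases before the start of transcription were searched on both strands. The windows shown are those with the most matches, and Jun, which has a variant form. Capitals mark matches to TGACG or TGACNTCA on either strand. A match to TGACG on the other strand reads as CGTCA.

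Fos: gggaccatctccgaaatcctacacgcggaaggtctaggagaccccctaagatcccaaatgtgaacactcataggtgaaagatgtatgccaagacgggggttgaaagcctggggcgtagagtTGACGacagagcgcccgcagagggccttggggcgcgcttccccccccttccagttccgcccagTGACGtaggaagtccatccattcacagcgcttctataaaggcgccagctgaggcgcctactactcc

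Nr4a1: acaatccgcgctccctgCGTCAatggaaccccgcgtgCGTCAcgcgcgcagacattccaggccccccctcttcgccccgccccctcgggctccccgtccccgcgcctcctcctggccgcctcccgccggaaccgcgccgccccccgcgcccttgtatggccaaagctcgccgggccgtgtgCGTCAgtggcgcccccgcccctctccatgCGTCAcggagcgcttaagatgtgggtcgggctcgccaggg

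Dusp1: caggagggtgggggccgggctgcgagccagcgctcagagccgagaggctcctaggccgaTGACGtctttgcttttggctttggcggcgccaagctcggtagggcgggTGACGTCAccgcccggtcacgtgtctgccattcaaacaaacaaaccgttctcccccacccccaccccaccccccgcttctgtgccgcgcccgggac

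Jun: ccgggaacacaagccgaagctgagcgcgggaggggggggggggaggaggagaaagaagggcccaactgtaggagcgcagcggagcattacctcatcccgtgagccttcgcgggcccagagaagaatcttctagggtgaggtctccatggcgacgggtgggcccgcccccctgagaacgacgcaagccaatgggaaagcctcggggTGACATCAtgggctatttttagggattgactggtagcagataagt

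The Fos window lies at chr12:85473640-85473889 (plus strand) and overlaps no gene of GENCODE M21. The Nr4a1 window lies at chr15:101266596-101266845 (plus strand), in an intron of longer Nr4a1 transcripts. The Dusp1 window, at chr17:26508520-26508722 (minus strand), lies within the annotated Dusp1 gene and was cut short by the 47 bases that GENCODE places in an exon. The Jun window, at chr4:95052223-95052472 (minus strand), lies within the gene Junos on the opposite strand. TGACG was present in 6 of the 8 windows, 4 times in Nr4a1, 3 times in Dusp1, 2 times in Fos and 1 time each in Fosb, Junb and Atf3. The Atf3 match starts 7 bases before the RefSeq start, inside an exon of GENCODE. Of all 32851 windows 17.8% held TGACG, and 0.688% held it 3 or more times. The full TGACGTCA, which contains TGACG on both strands and so counts as 2 of the Dusp1 matches, was found in Dusp1 alone (1.55% of all windows). TGACNTCA was found in Dusp1 and in Jun (7.49% of all windows). TGANTCA and the CArG box were found in 0 of 8 windows (6.75% and 1.47% of all windows). Egr1 and Ier2 had no window, and sequence further upstream was not searched. TGACG and TGACNTCA were picked after these sequences had been looked at, so the shares are a description. A match says nothing of whether a protein binds there.

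The control library held 3900 barcodes with 32702089 UMIs and the knockout-labelled library 3044 barcodes with 28033433 UMIs, of which 3750 and 2939 cells were analysed. Mesenchyme gave 2579 control and 2097 knockout-labelled cells, epithelium 754 and 469, mesothelium 254 and 247, immune cells 81 and 21, neural cells 50 and 64, and endothelium 25 and 32. Epithelial markers summed to 3698 and 3392 CPM (UMIs per 1000000 of the class) in epithelium against 38.7 and 28.8 CPM in mesenchyme. The mesothelial cells carried mesenchymal markers (3517 and 3565 CPM) beside their own (1146 and 914 CPM). Dpy30 stood at 225 CPM in control and 266 CPM in knockout-labelled epithelium, at 96.9 and 113 CPM in mesenchyme and at 173 and 140 CPM in mesothelium, so it was not lower in the library titled knockout in the first 2 of these classes. A 3′ count cannot show a deletion elsewhere in the gene, so "knockout-labelled" is used throughout. Xist gave 0 UMIs in control epithelium and 9956 in the other library, and Ddx3y 450 and 0, so the embryos also differed in sex-linked transcripts. Erythroid markers, which none of these classes should express, summed to between 164 and 198 CPM over the 6 classes of the control library and to between 329 and 390 CPM in the other. The libraries shared 22 barcode sequences, 20 of them among the analysed cells. Each title has 1 embryo and 1 library, so genotype, sex, embryo and handling of the tube cannot be told apart, and no test between the titles was possible. Intervals are 95% Poisson (CPM and ratios) or Clopper-Pearson (shares), cover counting error only, and are too narrow where transcripts of 1 cell are counted together.

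Together the 10 genes were most abundant in mesenchyme and in immune cells. They summed to 3985 CPM (3954 to 4015) in control mesenchyme and 3525 CPM (3496 to 3554) in knockout-labelled mesenchyme. In epithelium they summed to 2109 and 1942 CPM, in mesothelium to 1924 and 2124 CPM and in endothelium to 1615 and 1645 CPM. Immune cells stood at 4441 and 3069 CPM, and neural cells at 1410 and 539 CPM. Mesenchyme lay above epithelium, mesothelium, endothelium and neural cells in both libraries. Immune cells lay above mesenchyme in the control library and below it in the knockout-labelled one. Droplets with over 50% haemoglobin UMIs, which are red blood cells, served as a check of free RNA: they held 1.38 and 2.76 member UMIs per droplet, against 25.9 and 26.8 per mesenchymal cell and 11.4 and 5.98 per neural cell, the lowest of the 6 classes. Median depth was 6430.5 and 12417 UMIs in those droplets and 6012 and 7207 in mesenchyme. Epithelial cells were deeper, with medians of 12176 and 14383 UMIs, and held 28.6 and 29.0 member UMIs each, more than mesenchymal cells. The order of mesenchyme above epithelium is thus one of shares of all UMIs, and not of member UMIs per cell.

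Fos, the partner that Jun proteins need for the most active AP-1 dimer, stood at 1353 CPM in control and 1064 CPM in knockout-labelled mesenchyme. In epithelium it stood at 422 and 353 CPM, in mesothelium at 478 and 507 CPM, in immune cells at 1481 and 1062 CPM, in endothelium at 311 and 218 CPM and in neural cells at 332 and 90.0 CPM. Mesenchyme and immune cells overlapped, and both lay above the other 4 classes in both libraries. A Fos UMI was found in 96.2% and 94.8% of mesenchymal cells and in 86.1% and 84.4% of epithelial cells, against 8 of 32 and 10 of 37 haemoglobin-rich droplets. With each cell thinned to 3000 UMIs these shares were 90.5% and 85.3% in mesenchyme and 59.0% and 53.6% in epithelium. Fosb, a close relative of Fos, had its highest level in mesenchyme: 331 and 283 CPM in mesenchyme against 50.5 and 58.5 CPM in epithelium, 96.6 and 141 CPM in mesothelium and 108 and 120 CPM in immune cells. No other class reached the mesenchymal level of Fosb in either library.

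Jun, the partner of Fos, was spread more evenly, at 861 and 945 CPM in mesenchyme, 677 and 674 CPM in epithelium, 591 and 618 CPM in mesothelium and 585 and 360 CPM in immune cells. Neural cells held 347 and 148 CPM of Jun and endothelium 266 and 209 CPM. Junb, which can replace Jun in AP-1 and is often a weaker activator, was highest in immune cells (568 and 382 CPM), followed by mesenchyme (303 and 225 CPM) and endothelium (279 and 300 CPM), which overlapped. Epithelium held 132 and 84.5 CPM of Junb, neural cells 84.2 and 43.6 CPM and mesothelium 28.6 and 25.5 CPM. Mesothelium was thus the lowest class for Junb in both libraries while for Jun and Fos it lay above endothelium and neural cells. A Junb UMI was found in 15.7% and 16.2% of mesothelial cells, near the 9.38% and 10.8% of haemoglobin-rich droplets. Jund, the family member least dependent on stimuli, was low in all classes, between 14.9 and 36.7 CPM in the control library and between 17.0 and 53.3 CPM in the other.

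Egr1 stood at 486 and 362 CPM in mesenchyme, 271 and 207 CPM in epithelium, 321 and 269 CPM in mesothelium, 366 and 204 CPM in immune cells, 208 and 56.3 CPM in neural cells and 107 and 133 CPM in endothelium. Mesenchyme lay above the other classes within each library. Ier2 was alike in mesenchyme (400.2 and 376 CPM) and epithelium (375 and 419 CPM), whose ranges overlapped, and lower in mesothelium (186 and 224 CPM) and in neural cells (279.9 and 129 CPM). Immune cells held 655 and 422 CPM of Ier2 and endothelium 406 and 455 CPM. Atf3 ran the other way. It was low in mesenchyme (30.6 and 46.1 CPM), higher in mesothelium (120 and 197 CPM) and highest in immune cells (290 and 204 CPM), and the 3 pairs of values did not overlap, though in the knockout-labelled library the immune value (149.6 to 273 CPM by counting error) could not be told from the mesothelial one (179.8 to 216 CPM). In neural cells 1 and 2 Atf3 UMIs were counted in all. Nr4a1 stood at 98.3 and 44.9 CPM in mesenchyme, 81.2 and 52.8 CPM in epithelium, 114 and 62.2 CPM in immune cells and 23.8 and 29.8 CPM in mesothelium. Dusp1 was highest in immune cells (237 and 199.9 CPM), overlapped between endothelium (94.3 and 153 CPM) and mesenchyme (91.2 and 130.4 CPM), and was lowest in epithelium (22.9 and 21.0 CPM).

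**Figure D1:**
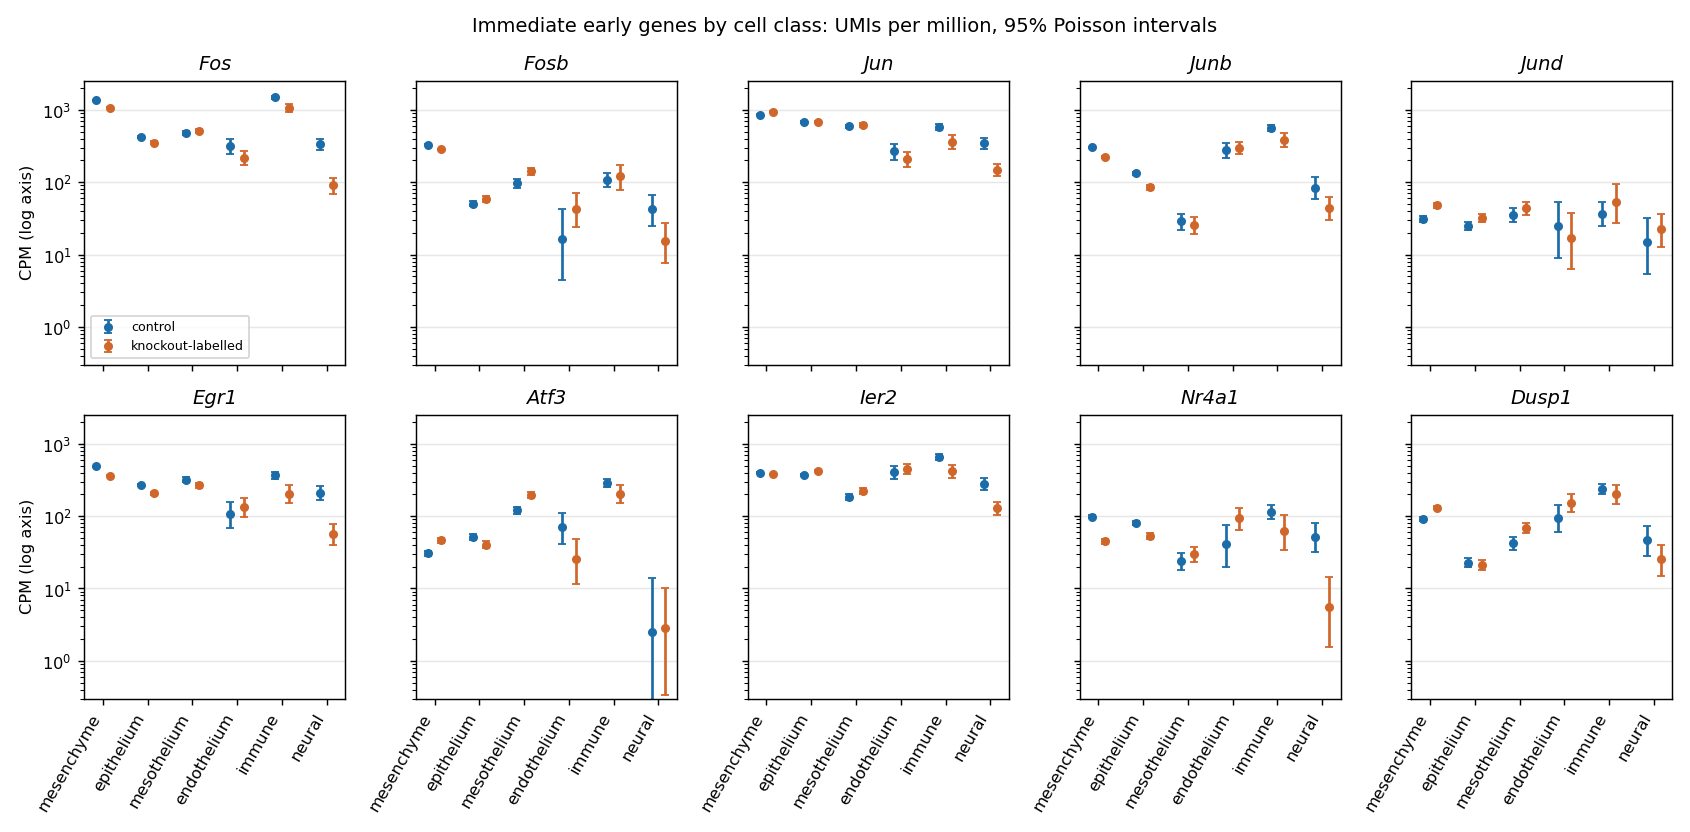
Level of each of the 10 genes (CPM, log axis) in the 6 cell classes, control in blue and knockout-labelled in orange, 1 library each; bars are 95% Poisson intervals. Fos and Fosb are higher in mesenchyme than in epithelium in both libraries, Atf3 is lower there than in mesothelium, and Junb is lowest in mesothelium at 28.6 and 25.5 CPM.

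The difference between classes was tested on UMI sums per library and class with edgeR's quasi-likelihood test, with the library as a block and Benjamini-Hochberg adjustment over 11479 genes. The replicates are the 2 embryos, which differ in title and in sex-linked transcripts. The spread of each gene was estimated over all classes together, so the p-values depend on which classes are in the fit. In epithelium 6 of the 10 genes were lower than in mesenchyme and 0 higher, where 31.5% of all genes were called lower and 26.1% higher. The largest changes were Fosb (log2 -2.63 ± 0.19, SE; edgeR adjusted p = 8.7e-07), Dusp1 (-2.42 ± 0.21; edgeR adjusted p = 1.0e-06) and Fos (-1.76 ± 0.31; edgeR adjusted p = 0.0047). Junb (-1.43), Egr1 (-0.95) and Jund (-0.57) also fell. Jun (-0.55), Nr4a1 (-0.18), Ier2 (-0.09) and Atf3 (0.18) did not pass. With epithelium, mesenchyme and mesothelium alone in the fit Jun was called lower as well (-0.46; edgeR adjusted p = 4.5e-06, against 0.147 with all classes). The median over the 10 genes was -0.76 and over all genes -0.06. The call for Egr1 (edgeR adjusted p = 0.0184) was lost with DESeq2 (adjusted p = 0.0659), the highest value over the alternatives; the lowest was 1.9e-08.

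In mesothelium 4 genes were lower than in mesenchyme and 1 higher, where 14.7% of all genes were called lower and 15.2% higher. Junb fell most (-3.37 ± 0.16; edgeR adjusted p = 1.4e-16), followed by Fosb (-1.46), Fos (-1.35) and Dusp1 (-1.07). Atf3 rose (1.97 ± 0.34; edgeR adjusted p = 0.0081). Ier2 (-0.998), Nr4a1 (-1.43), Jun (-0.66), Egr1 (-0.60) and Jund (-0.07) did not pass. With the 3 large classes alone in the fit the count was 8 genes, with Jun, Egr1 and Ier2 added.

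In immune cells 3 genes were higher and 1 lower, where 17.8% and 23.9% of all genes were called. Atf3 rose by 2.90 (± 0.43), Dusp1 by 1.17 (± 0.25) and Junb by 0.92 (± 0.13) on the log2 scale, and Fosb fell by 1.38 (± 0.28), with edgeR adjusted p between 1.8e-06 and 0.0031. The leading genes of this class included S100a8, S100a9 and C1qb, which mark neutrophils and macrophages. In neural cells 7 genes were lower and 0 higher, where 13.5% and 12.7% of all genes were called, and the median of the 10 was -2.08 against -0.10 over all genes. Fosb (-3.78), Fos (-2.85), Junb (-2.27), Jun (-2.14), Egr1 (-2.01), Dusp1 (-1.91) and Jund (-1.20) fell there. DESeq2 called 9 lower, with Atf3 (-3.92; adjusted p = 0.000594) and Ier2 (-1.06; adjusted p = 0.0213) added. In endothelium 5 were lower and 0 higher (12.3% and 10.9% of all genes): Fosb (-3.33), Fos (-2.24), Jun (-1.98), Egr1 (-1.80) and Jund (-1.03, edgeR adjusted p = 0.0484, from 0.0337 to 0.165 over the alternatives). Endothelial Junb (0.14), Dusp1 (0.16), Ier2 (0.13), Nr4a1 (0.08) and Atf3 (0.15) did not pass. Of all genes called in immune cells 42.7% were higher with the default scaling and 52.7% with median-of-ratios scaling, and the 4 members called there were 3 higher and 1 lower under both. With DESeq2 the share called higher became 57.9% in immune cells, 65.2% in endothelium (47.0% with edgeR), 62.6% in mesothelium (51.0%) and 61.7% in neural cells (48.6%).

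Within the epithelium the summed level was highest in the trunk, the bipotent duct and endocrine precursors, but not all of the genes had their highest level there. Summed levels were 2619 and 2328 CPM in trunk, 1596 and 1644 CPM in tip (the acinar precursors), 1495 and 1348 CPM in endocrine progenitors and 1900 and 1983 CPM in endocrine cells. Trunk lay above the 3 other classes in both libraries. These classes were not tested against each other. Jun, Atf3 and Nr4a1 were highest in trunk in both libraries. Jun stood at 901 and 837 CPM in trunk and 499.6 and 584 CPM in tip. Atf3 stood at 93.9 and 62.7 CPM in trunk against 10.5 and 23.0 CPM in tip, and Nr4a1 at 125 and 73.5 CPM against 46.1 and 37.8 CPM. Fos, Fosb, Junb, Jund and Dusp1 were higher in endocrine cells than in trunk in both libraries. Fos stood there at 660.0 and 689 CPM against 516 and 465 CPM in trunk, and Dusp1 at 45.9 and 128 CPM against 28.2 and 26.9 CPM. Endocrine cells had less Jun (371 and 313 CPM), and of Atf3 6 UMIs in 78 control cells and 1 UMI in 18 knockout-labelled cells. Jund was higher in endocrine progenitors (56.1 and 85.3 CPM) than in trunk (21.2 and 31.98 CPM) in both libraries.

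The authors' deposited table of epithelial clusters lists several of the genes, with an average log fold read as a natural log; the cells behind it are not stated. In the authors' deposited table Jun is lower in the cluster led by Gcg and Pyy (-0.567), where it was detected in 70.5% of cells against 94.8% elsewhere. For that cluster the authors' deposited table also has Ier2 (-0.505), Nr4a1 (-0.341) and Atf3 (-0.337) lower, but Fos (0.447) and Junb (0.381) higher. Jun is higher in the authors' deposited table in the cluster led by Spp1 and Cyr61 (0.414). In the authors' deposited table Atf3 was detected in 51.4% of the cells of a cluster led by the mitotic genes Ube2c and Cenpf against 21.2% elsewhere. In the deposited counts the trunk cluster led by Ube2c and Cenpf held 93.0 and 78.1 CPM of Atf3, and the trunk cluster led by Cxcl12 and Anxa2 held 110.4 and 76.6 CPM. A small trunk cluster led by Ccnb2 and Cenpa, with Atf3 itself among its 10 leading genes, held 193 CPM in 31 control cells and 45.9 CPM in 20 knockout-labelled cells.

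Cells of 1 class differed widely in how many member transcripts they held. In mesenchymal cells thinned to 3000 UMIs the 10 genes gave a median of 11 UMIs in control and 10 in knockout-labelled cells, with 5th and 95th percentiles of 2 and 29, and 2 and 24. In epithelium the median was 5 in both libraries, and in mesothelium 4 and 5. The highest 10% of mesenchymal cells held 25.04% and 24.4% of the member UMIs. The variance over the mean is the Fano factor, 1 for counts with no spread beyond sampling. In mesenchyme it was 3.02 and 2.94 for Fos, 2.90 and 2.60 for Jun and 1.02 and 1.08 for Jund. Its median was 1.02 over genes with a UMI in at least 5% of cells. Mean UMIs were 4.25 and 3.36 for Fos, 2.64 and 2.98 for Jun and 0.101 and 0.157 for Jund. Atf3, at means of 0.0949 and 0.147, had Fano factors of 1.60 and 1.67. Genes of like mean were not compared. In mesothelium Fos (2.75 and 2.43) and Atf3 (2.17 and 2.44) had the highest Fano factors of the 10 genes. Mesenchymal cells with 0 member UMIs were rare at this depth, 31 of 2549 (1.22%) and 27 of 2049 (1.32%). The mesenchyme pools clusters whose summed level ran from 2649 to 5350 CPM in control and from 2453 to 5614 CPM in knockout-labelled cells. The part of cluster makeup in the spread and in the correlations below was not tested.

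**Figure D2:**
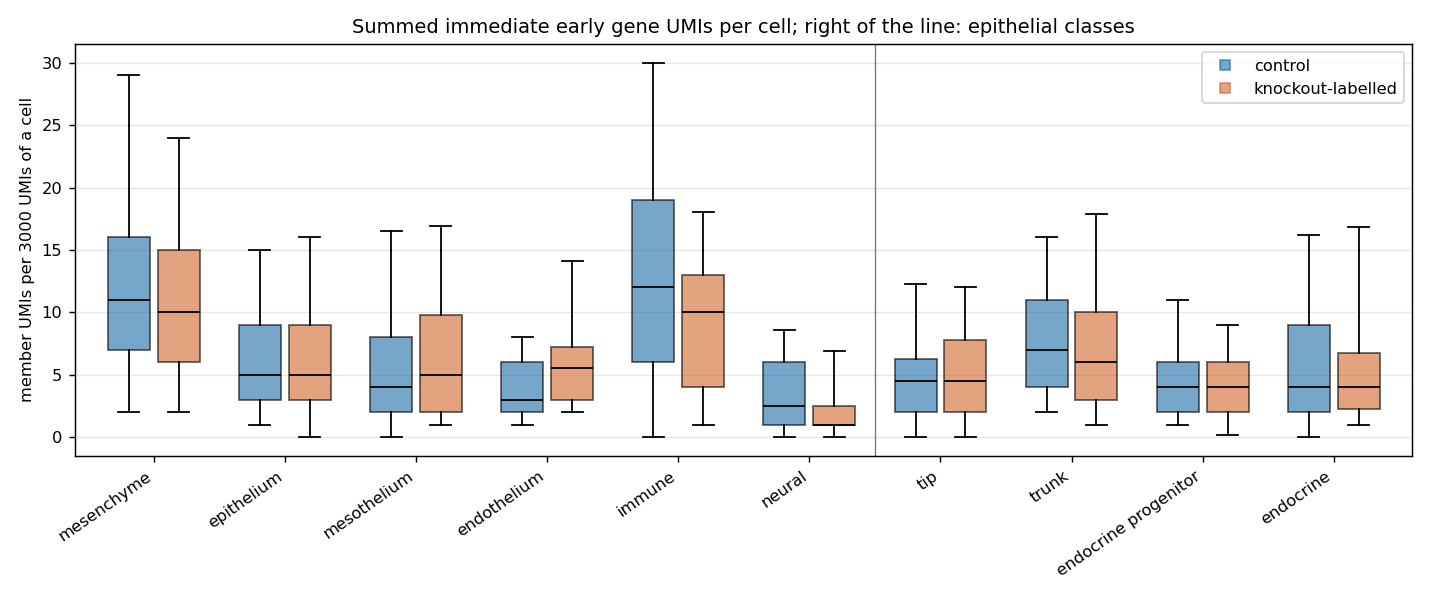
UMIs of the 10 genes summed per cell after each cell was thinned to 3000 UMIs, by class and library; boxes span the 25th to 75th percentile, the line is the median and whiskers reach the 5th and 95th percentile. Median values are 11 and 10 in mesenchyme, 5 and 5 in epithelium, and 7 and 6 in trunk.

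The genes varied together between cells. In mesenchyme the median Pearson r over the 45 pairs was 0.1499 in 2549 control cells and 0.105 in 2049 knockout-labelled cells, and 45 and 44 pairs were above 0. Over all pairs of genes with a UMI in at least 5% of cells the median was near 0 and the 99th percentile 0.0525 and 0.0578. Pairs of like mean were not compared, so the part of expression level in these differences was not tested. In epithelium the median was 0.0984 and 0.105 (749 and 468 cells), against 99th percentiles of 0.112 and 0.126. These r values come from sparse counts of cells that share a library, and are given as a description. Scaling all UMIs in place of thinning raised the medians to between 0.187 and 0.246. Epithelium here pools tip, trunk and endocrine classes. With thinning, the median within tip alone was 0.0649 and 0.113, against 99th percentiles of 0.196 and 0.192. Within trunk alone it was 0.0828 and 0.128, against 0.133 and 0.173.

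Fos had the highest r values in mesenchyme, with its AP-1 partners and Egr1. Fos and Fosb had r of 0.372 and 0.346, Fos and Jun 0.351 and 0.356, Fos and Egr1 0.317 and 0.290, and Fosb and Jun 0.314 and 0.277. Jund had low r with the rest, and the lowest with Nr4a1, 0.0346 and -0.0313. Nr4a1 and Jun had r of 0.122 in the control library and 0.0265 in the other. In epithelium the highest pair was Jun with Ier2 in the control library and Fos with Jun in the other. Jun went there with Ier2 (0.270 and 0.268), Fos (0.206 and 0.317) and Nr4a1 (0.224 and 0.234), and Ier2 and Dusp1 had r of -0.0473 and -0.0674. In mesothelium (251 and 242 cells) the highest pair was Fos with Egr1 in the control library (0.412, 0.319 in the other) and Fos with Atf3 in the knockout-labelled one (0.436, 0.394 in control).

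**Figure D3:**
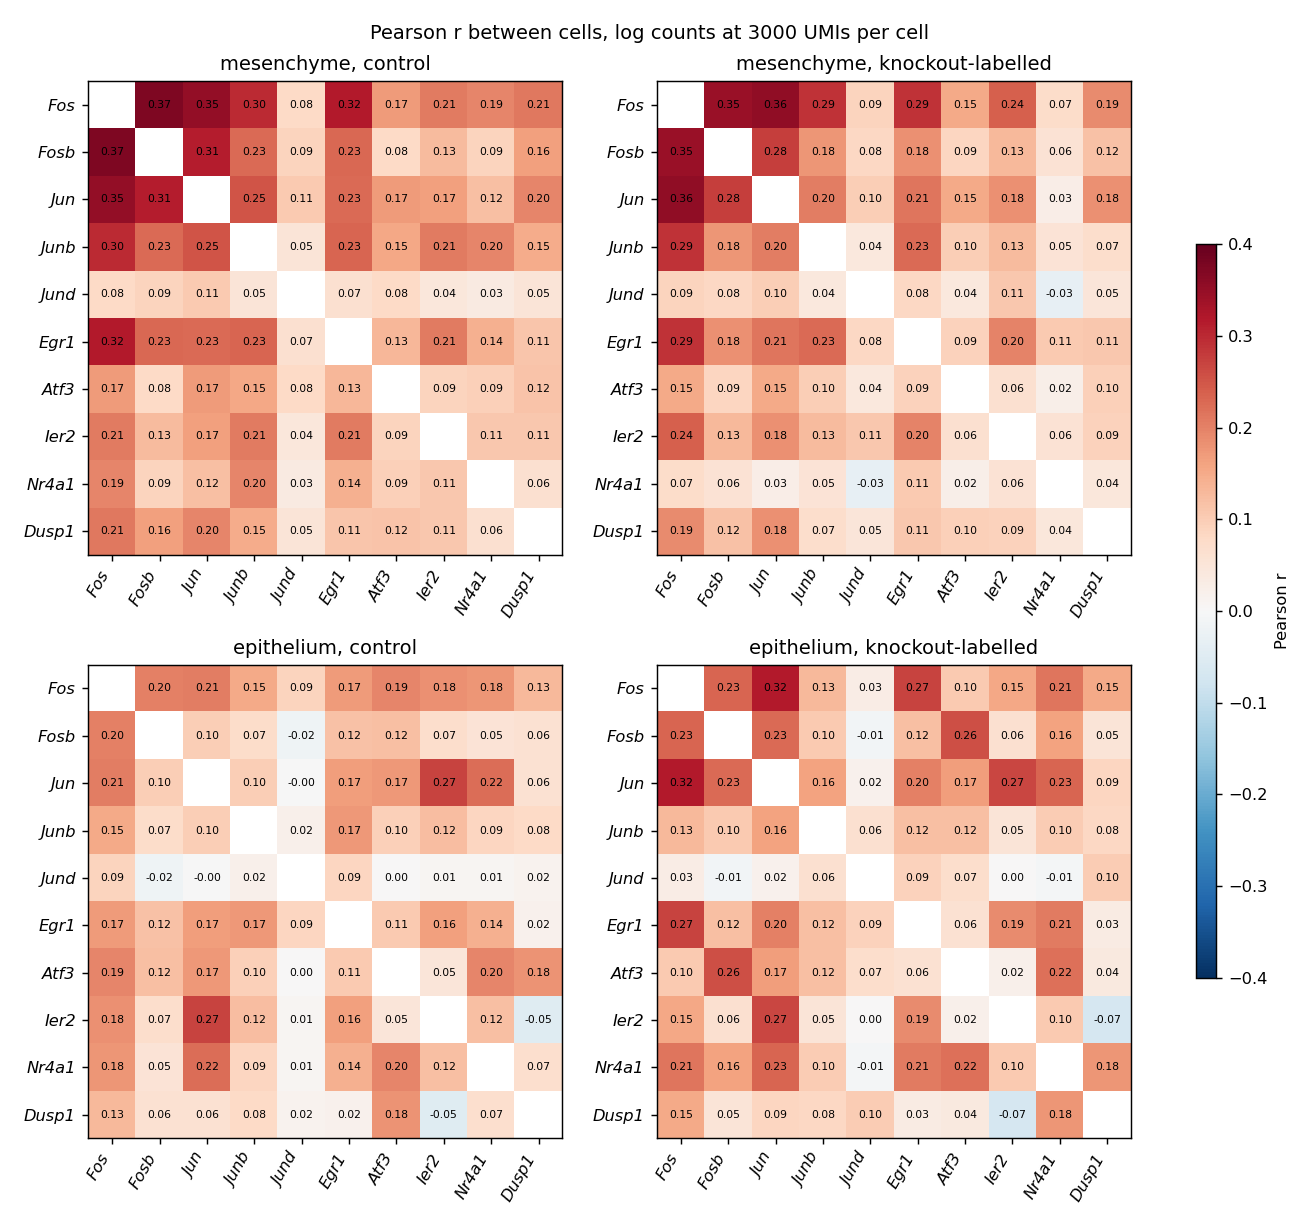
Pearson r between cells for each pair of the 10 genes (log counts, 3000 UMIs per cell), in mesenchyme (top) and epithelium (bottom), control at left and knockout-labelled at right. The highest values in mesenchyme are those of Fos with Fosb in the control library (0.372) and of Fos with Jun in the knockout-labelled one (0.356).

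The genes most like the summed members in mesenchyme, by the lower r of the 2 libraries among 5249 genes, were Btg2 (0.282 and 0.244), an early growth arrest gene, Meg3 (0.229 and 0.256), Socs3 (0.232 and 0.213), Klf4 (0.209 and 0.216), Ppp1r15a (0.234 and 0.187), Malat1 (0.174 and 0.231), Klf6 (0.167 and 0.167) and Cyr61 (0.141 and 0.197). Of these 8, 6 are in the list of other early response genes, and Meg3 and Malat1 are long noncoding RNAs kept in the nucleus. In epithelium the most alike were Cyr61 (0.382 and 0.428), a secreted target of YAP and SRF, Klf6 (0.262 and 0.195), Hes1 (0.191 and 0.186) and Adamts1 (0.180 and 0.216). These values pool the epithelial classes, and Cyr61 was itself among the leading genes of a trunk cluster. The part of class makeup in them was not tested. Of the 14 heat shock and chaperone genes, the 11 with a UMI in at least 5% of thinned mesenchymal cells were compared. As a set they did not join. Their own pairs had a median r of 0.0143 and 0.0180 in mesenchyme, and pairs of a member with a heat shock gene 0.00517 and -0.00862. The summed members had r of -0.127 and -0.124 with the depth of the cell and -0.127 and -0.0861 with its mitochondrial share in mesenchyme. With mesenchymal cells split by depth into 3 equal groups, the deepest held a mean of 11.1 and 9.52 member UMIs per 3000 and the shallowest 13.6 and 12.4. The part of depth in these correlations was not tested.

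Between the libraries the summed level differed by less than 1.5-fold in the 3 large classes. The log2 ratio of CPM + 5, knockout-labelled over control, was -0.18 (-0.19 to -0.16) in mesenchyme, -0.12 (-0.15 to -0.09) in epithelium and 0.14 (0.08 to 0.20) in mesothelium. Single genes moved in different directions. In mesenchyme Nr4a1 was lower in the knockout-labelled library, 98.3 against 44.9 CPM, a log2 ratio of -1.05 (-1.17 to -0.93). It was the one member past 1.5-fold there, where 0.822% of 12770 genes were lower by that much and 0.509% higher. Jund, at 0.56, was also past it with a pseudocount of 1 in place of 5 (0.62) and without haemoglobin, mitochondrial and ribosomal protein genes (0.59). Junb (-0.42), Egr1 (-0.42), Fos (-0.35) and Fosb (-0.22) were also lower, and Jund, Atf3 (0.52), Dusp1 (0.49) and Jun (0.13) higher. Fos was thus lower and its partner Jun higher in the same class. Ier2 was at -0.09.

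In epithelium Junb was lower, 132 against 84.5 CPM (-0.62, -0.75 to -0.48), and was the one member past 1.5-fold, where 1.97% of 12109 genes were lower by that much and 0.785% higher. Nr4a1 lay just inside the limit at -0.58 and past it with a pseudocount of 1 (-0.61), the stricter cell filter (-0.61) or doublets kept (-0.62), and Egr1 (-0.38), Atf3 (-0.32) and Fos (-0.26) were lower too. Jund (0.32), Fosb (0.19) and Ier2 (0.16) were higher, and Jun was at -0.01. Fosb was at -0.14 after thinning to 3000 UMIs, the opposite sign, and Jund at 0.60. Junb lay inside 1.5-fold under 4 alternatives, among them thinning (-0.53) and a pseudocount of 20 (-0.54). In mesothelium Atf3 (0.69, 0.48 to 0.90) and Dusp1 (0.63, 0.30 to 0.96) were past 1.5-fold, where 2.88% of 9861 genes were higher by that much and 3.92% lower. Atf3 was inside that limit with doublets kept (0.57) and Dusp1 with a pseudocount of 20 (0.50). Fosb was at 0.52, and at 0.83 after thinning, and Egr1 was at -0.25. Atf3 thus had the opposite sign in epithelium to that in mesenchyme and mesothelium, and the difference between classes was not tested. Within the epithelium the summed ratio was 0.04 in tip, -0.17 in trunk, -0.15 in endocrine progenitors and 0.06 in endocrine cells. Atf3 was higher in knockout-labelled tip (0.85, 0.43 to 1.26), where 3.29% of 9856 genes were higher and 2.83% lower by 1.5-fold, and lower in knockout-labelled trunk (-0.55, -0.77 to -0.32). In trunk Nr4a1 (-0.73) and Junb (-0.65) were lower by 1.5-fold and 0 members higher, against 1.48% lower and 1.71% higher of 10698 genes. In endocrine progenitors Junb (-0.67) was lower and Atf3 (0.63, from 13 and 9 UMIs) higher by that much, where 10.3% of 6467 genes were lower and 7.69% higher. In endocrine cells (18 in the knockout-labelled library) Junb (-0.85) was lower, and Dusp1 (1.39), Nr4a1 (0.81) and Jund (0.75) were higher, where 17.3% of 5241 genes were lower and 10.3% higher. The tip, too, was unlike between the libraries: 3 of its 5 clusters held 5 to 7 control and 30 to 64 knockout-labelled cells. The part of this makeup in the Atf3 ratio was not tested.

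**Figure D4:**
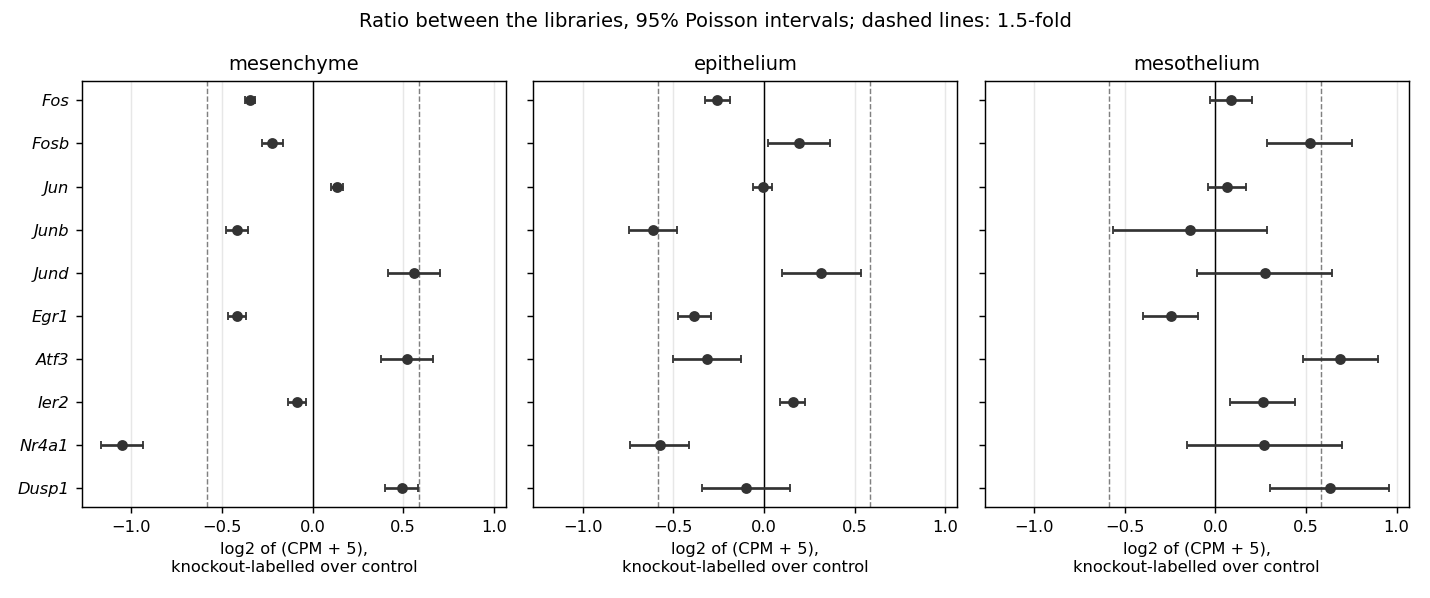
Log2 ratio of CPM + 5 of the knockout-labelled over the control library for each gene in mesenchyme, epithelium and mesothelium, with 95% Poisson intervals that cover counting error only; dashed lines mark 1.5-fold. Nr4a1 is the lowest point, at -1.05 in mesenchyme, and Jund lies above 0 in all 3 classes, with an interval that includes 0 in mesothelium.

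The mesenchyme of the 2 libraries was not made of the same clusters. A cluster led by Pdgfrb and Osr2 held 605 control and 55 knockout-labelled cells, one led by Rgcc and Nefl 416 and 38, and one led by Tac2, with Xist and Tsix among its leading genes, 72 and 541. The 10 genes were left out of the clustering. Over the 10 mesenchymal clusters, which share their libraries and are no replicates, Nr4a1 was lower in the knockout-labelled library in 9, between -1.43 and 0.26 with a median of -0.98. Dusp1 (0.04 to 1.23) and Jund (0.04 to 1.02) were higher in all 10, Junb and Egr1 lower in 9, Fos lower in 8 and Jun higher in 8. Without the 3 unequal clusters, a choice made after seeing the data, 1486 and 1463 cells were left, and the ratio was -1.19 for Nr4a1, -0.53 for Junb, -0.35 for Fos, 0.44 for Dusp1, 0.51 for Jund, 0.03 for Jun and 0.32 for Atf3. The summed ratio was then -0.23. On the log2 scale the ratios of Jun and Atf3 were smaller than with all 10 clusters, and those of Fos and Dusp1 changed by less.

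**Figure D5:**
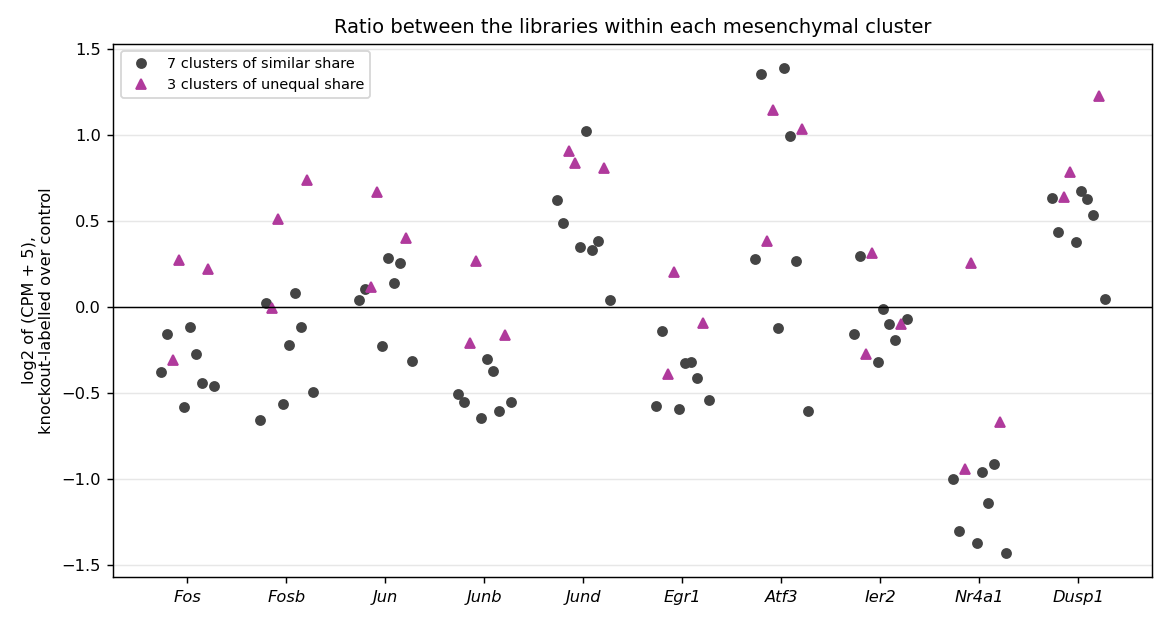
Log2 ratio of CPM + 5, knockout-labelled over control, of each gene within each of the 10 mesenchymal clusters; triangles are the 3 clusters held mostly by 1 library. Nr4a1 is below 0 in 9 clusters, and Jund and Dusp1 are above 0 in all 10.

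The rarer classes had few cells. In neural cells the summed level was 1410 CPM in 50 control cells and 539 CPM in 64 knockout-labelled cells, a log2 ratio of -1.38 (-1.56 to -1.19), and 8 of the 9 members with 20 UMIs or more were lower by 1.5-fold and 0 higher, against 8.96% lower and 9.07% higher of 5701 genes. Jund was the exception (0.47, -0.57 to 1.51). Neural cells held 11.4 and 5.98 member UMIs each, against 1.38 and 2.76 per haemoglobin-rich droplet. Mesenchymal markers in this class summed to 609 CPM in control and 189 CPM in knockout-labelled cells, and their part in the ratio was not tested. The makeup of this class moved with the difference. Cells with more glial than neuronal marker UMIs, a split made after seeing the data, were 20 of the control and 12 of the knockout-labelled cells, with means of 5.85 and 3.75 member UMIs per 3000. Cells with more neuronal markers were 29 and 47, with means of 2.21 and 1.53, and the part of this makeup in the ratio was not tested. In immune cells 8 of the 10 genes were lower in the knockout-labelled library, where 54.6% of all genes were higher. By 1.5-fold 4 of the 10 were lower and 0 higher, against 16.8% and 16.5% of 4915 genes. Only 21 immune cells were in that library. Immune markers in the class summed to 16386 CPM in control and 8101 CPM in knockout-labelled cells, epithelial markers to 78.7 and 182 CPM, endothelial markers to 47.2 and 120 CPM and mesenchymal markers to 222 and 62.2 CPM. Their part in the immune ratios was not tested. In endothelium (25 and 32 cells) 2 of 8 members were higher and 1 lower by 1.5-fold, near the 12.2% and 10.6% of 3559 genes.

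Other early response genes, a list of 42 of which 41 matched, followed the members in part. Between classes, edgeR called 18 of 34 tested genes lower and 8 higher in epithelium than in mesenchyme, 17 lower and 3 higher in mesothelium, and 15 lower and 0 higher in neural cells. Of all genes 31.5% were called lower and 26.1% higher in epithelium, 14.7% and 15.2% in mesothelium, and 13.5% and 12.7% in neural cells. In immune cells 20 were higher and 5 lower, where 17.8% and 23.9% of all genes were. The list median was 1.24 against -0.28 over all genes. Klf4, a zinc finger factor of quiescence and early response, fell in epithelium (-3.95; edgeR adjusted p = 4.7e-20), in mesothelium (-1.86) and in immune cells (-3.43). Cyr61 stood at 337 and 358 CPM in mesenchyme and 386 and 321 CPM in epithelium and did not pass in epithelium (-0.11; edgeR adjusted p = 0.545).

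Between the libraries 31 of the 38 other early genes with 20 UMIs in mesenchyme were lower in the knockout-labelled one and 7 higher, with a median of -0.18 against -0.01 over all genes, of which 46.1% were higher. Ppp1r15a, a phosphatase subunit that restarts translation after stress, had 177 against 99.2 CPM in mesenchyme (-0.80), 68.1 against 45.0 CPM in epithelium (-0.55) and 71.9 against 48.1 CPM in mesothelium (-0.54). Fosl2, a further Fos relative, had 50.8 against 25.9 CPM in mesenchyme (-0.85). Among those with 50 CPM, Cyr61 (0.09) and Klf6 (-0.03) had the highest ratios there. In epithelium 25 of 37 were lower and 12 higher (median -0.16), with Gadd45g at -0.57 and Plk2 at 0.03. In mesothelium 15 of 30 were lower, with Socs3 at -0.23, Nfkbia at 0.30 and Klf6 at 0.21. Of all genes 44.6% were higher in epithelium and 46.3% in mesothelium.

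The heat shock and chaperone list had other counts than the members. In epithelium edgeR called 8 of its 13 tested genes higher than in mesenchyme and 3 lower, where 26.1% and 31.5% of all genes were. In immune cells it called 1 higher and 6 lower, where 17.8% and 23.9% of all genes were. Hsp90ab1 (2813 and 2859 CPM), Hspa8 (1687 and 1652 CPM) and Hsp90aa1 (680.0 and 717 CPM) led in mesenchyme, with ratios between the libraries of 0.02, -0.03 and 0.08. In mesenchyme 9 of 14 were higher in the knockout-labelled library, and those with 50 CPM ran from -0.26 for Dnajb1 to 0.34 for Hspa4. In epithelium 9 of 12 were lower, with Hspa8 at -0.29 and Hspa4 at 0.39. In mesothelium 8 of 12 were lower, with Hspa8 at -0.38 and Hspb1 at 0.20. Of all genes 46.1% were higher in mesenchyme, 44.6% in epithelium and 46.3% in mesothelium.

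Kinases and factors upstream of the members were present at low levels, led in mesenchyme by Map2k2 (98.3 and 134 CPM), a kinase of the ERK pathway, Atf1 (52.9 and 52.6 CPM) and Elk3 (48.0 and 53.9 CPM). Map2k2 had positive ratios in mesenchyme (0.43), epithelium (0.44) and mesothelium (0.32), while Mapk3 was at -0.47 in epithelium. Of the 16 genes 11 were lower in mesenchyme, where 46.1% of all genes were higher, and 8 in epithelium, where 44.6% were. Of the integrated stress response genes Atf4 led, at 129 and 106 CPM in mesenchyme (-0.27) and 118 and 89.3 CPM in epithelium (-0.38). The 6 such genes with 20 UMIs were all lower in the knockout-labelled library in both classes, with medians of -0.10 and -0.31. Of all genes 46.1% were higher in mesenchyme and 44.6% in epithelium. In mesothelium 3 of 5 such genes were higher and 2 lower, with a median of 0.24, where 46.3% of all genes were higher.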

How the data were processed

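The members, gene lists and markers were chosen with earlier results of these data known. UMI counts of each gene in each droplet were deposited by the authors. Per the submitters' processing notes the tools were Cell Ranger, Seurat 2 and Seurat 3 and the build GRCm38 (mm10). The version of Cell Ranger is, like the annotation, not given in the sources used here. A table was also deposited by the authors that holds, per the file headers, average log folds of clusters (read as natural log), fractions of cells with a UMI and p-values. Those deposited p-values treat cells as replicates and were left aside.

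Droplets needed 500 genes, 1000 UMIs and a mitochondrial share of no more than 10% to be kept, which removed 29 control and 32 knockout-labelled barcodes, and 121 and 73 likely doublets were removed by a score from simulated doublets at 0.8% per 1000 barcodes. Cells were clustered (scanpy 1.11.5, 2000 variable genes, 30 components, 15 neighbours, Leiden resolution 1.0) with the members and all stress lists left out of the genes used, and the epithelium was clustered again. Clusters were named from markers, at least 3 detected in 10% of cells, with no more markers of another class than of their own among the 10 leading genes. A stricter first rule left many cells unnamed and was relaxed after the clusters and member levels had been seen, and a leading marker was then asked of the erythroid class alone. Counts were summed per library and class as CPM, without division by gene length because 3′ chemistry counts transcript ends. Ratios are log2 of CPM + 5. For shares and correlations cells were thinned to 3000 UMIs and shallower cells left out.

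Class differences were tested with edgeR 4.0.16 (robust quasi-likelihood, TMM, filterByExpr, adjusted p under 0.05), and the standard error was taken from the F statistic. The 2 embryos are the only replicates of a class, and both sets of sums come from 1 preparation each. Named list genes are the 3 of highest CPM in mesenchyme and, among those with 50 CPM in a library and 20 UMIs, the 2 highest and 2 lowest ratios in mesenchyme, epithelium and mesothelium; Klf4 and the heat shock gene of the closing section were chosen after their values were seen. Cebpd was not matched. The ratio, correlation and edgeR steps were tested on simulated data. Alternatives were no filter, 1500 genes and 5% mitochondrial, doublets kept, resolutions 0.5 and 2.0, all genes in the clustering, TMM and median-of-ratios scaling, CPM without haemoglobin, mitochondrial and ribosomal genes, means over cells, thinning, pseudocounts of 1 and 20, thinning to 5000, Spearman's rho, counts scaled to 10000, DESeq2 1.42.0, no count filter and a fit of 3 classes.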

Additional observations from a re-analysis of the deposited data

How the results depend on the processing

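Of 400 alternative values of single genes between libraries 381 stayed within the counting interval, and of 40 alternative values of the summed ratio 33 did. The summed ratio in epithelium (-0.12) was -0.16 with doublets kept, -0.084 with median-of-ratios scaling, -0.075 without haemoglobin, mitochondrial and ribosomal protein genes and -0.064 after thinning to 3000 UMIs. In mesenchyme (-0.18) it was -0.16 with the stricter cell filter, -0.15 with TMM scaling and -0.23 without the 3 unequal clusters, the last chosen after seeing the data. After thinning, Fosb in epithelium went from 0.19 to -0.14 and Nr4a1 in mesothelium from 0.27 to -0.52. Counts scaled to 10000 in place of thinning raised the median pair correlation to 0.206 and 0.187 in mesenchyme and 0.224 and 0.246 in epithelium. The fit of 3 classes called 8 members in mesothelium in place of 5, and the other counts of called members stayed within 1.5 times. With 1 library left out, the summed log2 difference from mesenchyme ran from -0.92 to -0.86 in epithelium, -1.05 to -0.73 in mesothelium, -1.30 to -1.10 in endothelium, -0.20 to 0.16 in immune cells and -2.70 to -1.50 in neural cells. These are values with no test, since 1 library leaves no residual degrees of freedom. Resolutions of 0.5 and 2.0 gave the same class differences and member calls as the main setting. Their unchanged values are among those counted as staying. No paired analysis was possible because the titles have 1 library each and the shared number names no common animal or day. Depth limits Atf3 in neural and endocrine cells, where 1 to 6 UMIs were counted in a library. Other values rest on few UMIs too, among them endothelial Jund (6 in each library), endothelial Fosb (4 and 15) and neural Jund (6 and 16).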

Other observations

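Hspa1a, an inducible heat shock gene with the near-identical copy Hspa1b, was chosen after its values were seen. It stood at 22.6 CPM (379 UMIs) in control and 18.2 CPM (290 UMIs) in knockout-labelled mesenchyme, against 0.684 CPM (7 UMIs) and 0.714 CPM (5 UMIs) in epithelium and 5.20 and 2.98 CPM in mesothelium. The difference from mesenchyme was -5.00 on the log2 scale in epithelium (edgeR adjusted p = 8.8e-13) and -2.41 in mesothelium (edgeR adjusted p = 3.9e-06). In immune cells Hspa1a did not pass (0.05; edgeR adjusted p = 0.935). Unlike it, 8 of the 13 tested heat shock and chaperone genes were called higher in epithelium, where 26.1% of all genes were.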
